A study of Arabidopsis thaliana with 96 samples.

Results

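Small RNA was compared between untransformed ddm1-1, met1-1 and Col flowers of Arabidopsis thaliana. The 9 libraries, 3 of each genotype, are those of set B whose titles name ddm1-1, met1-1 or Col with flowers of class Wt and no transgene cassette, out of 32 libraries in set B and 96 in the series. Col is the Columbia accession, and Wt is the class that the labels give to the flowers. These labels name no cassette, so the plants were taken as untransformed. All 9 carry the same treatment label, floral structure change. For each replicate RNA came from a pool of young flowers of several lines that looked alike, and what a line is in plants with no cassette is not stated. The libraries were made with the Illumina TruSeq kit for small RNA. The labels do not give the age of the plants at harvest, how many generations each mutant had been kept, or whether the replicates were grown at the same time. The table holds no transcript of MET1 or DDM1 and no methylation, so the genotypes could not be checked in these libraries. Every ddm1-1 and met1-1 value below therefore rests on the labels.

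MET1 (AT5G49160) is the DNA methyltransferase that copies methylation at CG sites after replication, and DDM1 (AT5G66750) is a chromatin remodeller through which methyltransferases reach compact chromatin. In plants that lack either, transposons and other repeats lose methylation, many are transcribed, and their transcripts can be cut into small RNAs. In RNA-directed DNA methylation (RdDM), which the title of the series names, small interfering RNAs guide methylation to DNA of the same sequence. met1-1 is known as a partial loss-of-function allele.

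The reads were counted over 2 regions of AGAMOUS (AG, AT4G18960), the MADS-box gene that specifies stamens and carpels, on the plus strand of chromosome 4 in TAIR10. The enhancer region AGe spans chr4:10384147-10387145 and lies within intron 2 in 1 of the 4 annotated transcripts. In the other 3 transcripts 94.53% of it is in intron 2 and 90 bp are exon 3. The promoter region AGp spans chr4:10380701-10382800, upstream of the gene. Its column header reads AG promoter or M2, and what M2 means is not given. Both regions are poor in the CG sites that MET1 maintains. AGe holds 30 CG sites in 2999 bp and AGp 14 in 2100 bp, or 10 and 6.67 per 1000 bases, against 23.4 over the 5 nuclear chromosomes. Of consecutive windows of the same length in those chromosomes, 0.952% held as few CG sites as AGe and 0.462% as few as AGp. Windows in assembly gaps, where no CG site can be counted, were kept, so both shares may be too high. Counted on the plus strand only, AGe holds 36 CHG sites and AGp 25, where H is any base but G.

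The sequences come from RefSeq (TAIR10.1, with the nuclear chromosomes of TAIR10). The 300 bases of each region with the most CG sites are shown, plus strand, 5′ to 3′, with the CG sites in capitals, because CG is the context that MET1 maintains. The AGe stretch is chr4:10385426-10385725, in intron 2, with 8 CG sites. The AGp stretch is chr4:10380701-10381000, which ends 1855 bases upstream of the gene, with 6 CG sites.
AGe stretch: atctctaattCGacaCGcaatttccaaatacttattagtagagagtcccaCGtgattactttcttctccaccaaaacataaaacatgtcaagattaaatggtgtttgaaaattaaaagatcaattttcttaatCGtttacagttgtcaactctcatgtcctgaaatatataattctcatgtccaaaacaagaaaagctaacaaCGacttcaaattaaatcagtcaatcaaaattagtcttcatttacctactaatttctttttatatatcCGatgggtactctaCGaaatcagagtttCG
AGp stretch: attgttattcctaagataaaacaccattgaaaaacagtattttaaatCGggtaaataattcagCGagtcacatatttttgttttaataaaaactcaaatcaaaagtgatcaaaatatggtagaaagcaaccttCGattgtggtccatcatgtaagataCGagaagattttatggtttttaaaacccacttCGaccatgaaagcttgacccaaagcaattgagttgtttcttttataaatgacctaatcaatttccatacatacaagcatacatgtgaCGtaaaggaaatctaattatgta

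Most of the regions' sequence occurs nowhere else in the genome. Of the 21-base words of the nuclear chromosomes 12.4% occur more than once in the reference (either strand, organelles included), against 12 of 2979 words in AGe and 7 of 2080 in AGp. Of 24-base words 11.0% occur more than once, against 0 of 2976 in AGe and 0 of 2077 in AGp. These are counts of sequence words and not of reads. The table gives no read lengths or positions, and how the counting treated reads with several hits is not given in the sources used here.

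The 3 genotypes differed strongly in how much of their small RNA matched the genome at more than 1 place. In ddm1-1 flowers 73.6%, 74.4% and 73.7% of mapped reads aligned more than once. In met1-1 flowers the shares were 90.6%, 92.2% and 91.4%. In Col flowers they were 54.7%, 56.4% and 55.8%. Each genotype formed a tight band, and no library of one reached the band of another. The means were 73.9% ± 0.432 in ddm1-1, 91.4% ± 0.766 in met1-1 and 55.6% ± 0.879 in Col (SD, n = 3 each). The ddm1-1 mean thus lay 18.3 points above Col and the met1-1 mean 35.8 points above Col, while ddm1-1 lay 17.5 points below met1-1 (-17.5 as ddm1-1 minus met1-1). An exact permutation test over the 9 libraries gave p = 0.00357 for the 3 genotypes, the smallest that this design can give. For each pair of genotypes the two-sided exact permutation test gave p = 0.1 (adjusted p = 0.1 over the 3 pairs), the smallest that 3 against 3 libraries allow.

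In whole flowers, fewer cells of a type and less RNA per cell cannot be told apart. Reads aligned more than once can come from transposons and other repeats, from ribosomal and transfer RNA, or from microRNA families with several loci. The table does not divide them, so the share is a measure of repeat-matching small RNA as a whole.

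The edgeR tests of the read classes passed in 6 of 6 cases (100%). Counted per total read, reads aligned more than once rose 1.33-fold in ddm1-1 over Col and 1.68-fold in met1-1 over Col. The log2 changes were 0.41 ± 0.013 and 0.75 ± 0.013 (SE), with edgeR adjusted p of 1.50e-19 and 1.07e-24 over 6 tests. Reads aligned once fell in step. They made up 25.1% ± 0.358 of total reads in ddm1-1, 8.44% ± 0.746 in met1-1 and 42.6% ± 0.967 in Col. They stood at 0.589 of the Col level in ddm1-1 (95% interval 0.547 to 0.634, edgeR adjusted p = 5.48e-13) and at 0.198 in met1-1 (0.183 to 0.214, edgeR adjusted p = 1.85e-22). Between the mutants, ddm1-1 held 2.97 times as many reads aligned once as met1-1 (2.76 to 3.21, edgeR adjusted p = 2.99e-19) and 0.793 times as many aligned more than once (edgeR adjusted p = 7.55e-18). These small p-values rest on a spread shared by all 32 libraries of the set, and the classes are parts of 1 total, so the tests are not independent of each other. More repeat-matching RNA and less of the rest cannot be told apart in shares of a total.

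As reads aligned more than once per read aligned once, the ratio was 2.78, 2.90 and 2.81 in the ddm1-1 libraries, 9.68, 11.8 and 10.6 in the met1-1 libraries and 1.21, 1.29 and 1.26 in the Col libraries. The mean of ddm1-1 was 2.26 times that of Col and the mean of met1-1 8.51 times.

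**Figure D1:**
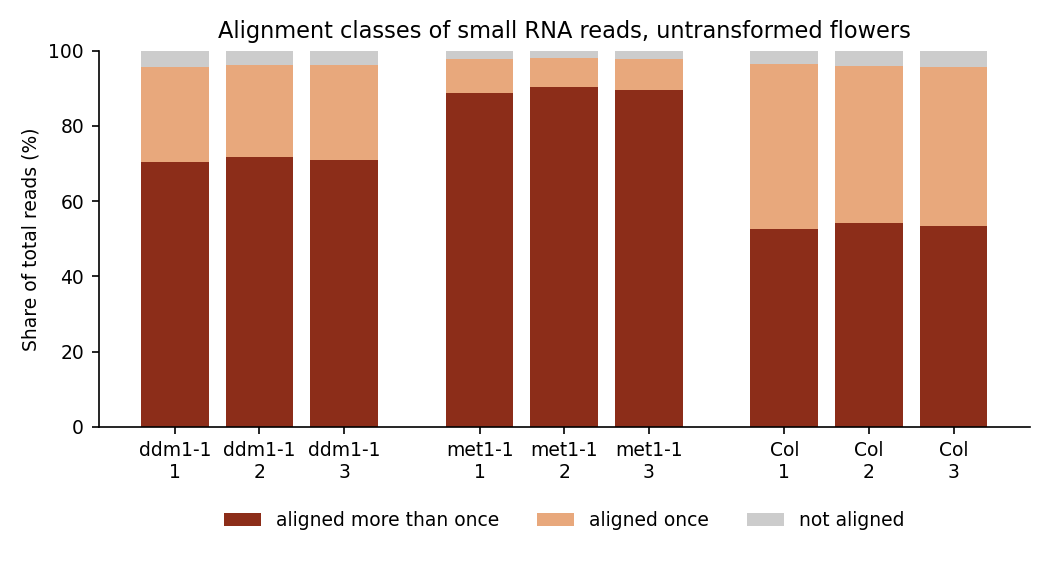
Stacked bars give the share of total reads (%, y axis) that aligned more than once, aligned once or did not align, in each of the 9 libraries, with the replicate number under the genotype. Reads aligned once shrink to between 24.7% and 25.3% in ddm1-1 and to between 7.68% and 9.17% in met1-1, against 41.8% to 43.7% in Col.

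The share of reads that did not align also differed. It was 4.22%, 3.69% and 3.81% in ddm1-1, 2.07%, 1.96% and 2.07% in met1-1 and 3.60%, 4.06% and 4.25% in Col. ddm1-1 overlapped Col, and met1-1 lay below both. What these reads are was not tested.

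The order of the mutants was not the same in flowers of the same set that carried a cassette. With Ctr//AGe in rMf flowers, reads aligned more than once made up 93.6% ± 0.170 of mapped reads in ddm1-1 and 74.0% ± 0.791 in met1-1, so that ddm1-1 lay 19.6 points above met1-1 in place of 17.5 below. The met1-1_Ctr//AGe libraries, at 73.4% to 74.9%, overlapped untransformed ddm1-1, and the ddm1-1_Ctr//AGe libraries, at 93.5% to 93.8%, lay above untransformed met1-1. With ARE//AGe in sMf flowers the means were 74.8% ± 0.588 in ddm1-1 and 80.8% ± 0.443 in met1-1, a difference of -6.07 points. With ARE//AGe in rMf flowers they were 86.7% ± 0.945 in ddm1-1 and 86.5% ± 0.832 in met1-1, and the libraries overlapped. An effect of cassette or flower class and an exchange of libraries between the genotypes cannot be told apart in this table, which bears on every comparison of ddm1-1 with met1-1 and of either with Col. Cassette names and the classes sMf and rMf are not spelled out in the labels.

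The difference between the mutants in reads aligned once per total read was tested for a change with cassette and flower class. On the log2 scale, the difference of ddm1-1 over met1-1 without a cassette minus that with Ctr//AGe in rMf flowers was 3.56 ± 0.075 (SE, edgeR adjusted p = 9.51e-23 over 12 tests). Minus that with ARE//AGe in sMf flowers it was 1.19 ± 0.073, and minus that with ARE//AGe in rMf flowers 1.62 ± 0.073 (edgeR adjusted p = 1.35e-13 and 2.86e-16). Within the transgene lines, ddm1-1 over met1-1 stood at 0.252 with Ctr//AGe (edgeR adjusted p = 6.50e-21), at 1.31 with ARE//AGe in sMf flowers (edgeR adjusted p = 1.87e-07) and at 0.965 with ARE//AGe in rMf flowers, where it did not pass (edgeR adjusted p = 0.331). Reads aligned more than once, also among the 12 tests, did pass there, at 0.980 (edgeR adjusted p = 0.0424).

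High shares also occurred in another host of set B, and Col with a cassette overlapped Col without. The 2 kan1-11_ARE//AGe libraries, from Wt flowers of a KANADI1 mutant, held 88.5% and 89.3% of reads aligned more than once; they are titled A and B, and the labels do not say that they are replicates. Col_ARE//AGe flowers held 55.2% to 56.5%, overlapping untransformed Col at 54.7% to 56.4%. In set C, which was not tested against set B, untransformed kan1-11 held 50.5% to 53.7% and Col 48.2% to 49.3%. No untransformed ddm1-1 or met1-1 library of another set was analysed here.

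**Figure D2:**
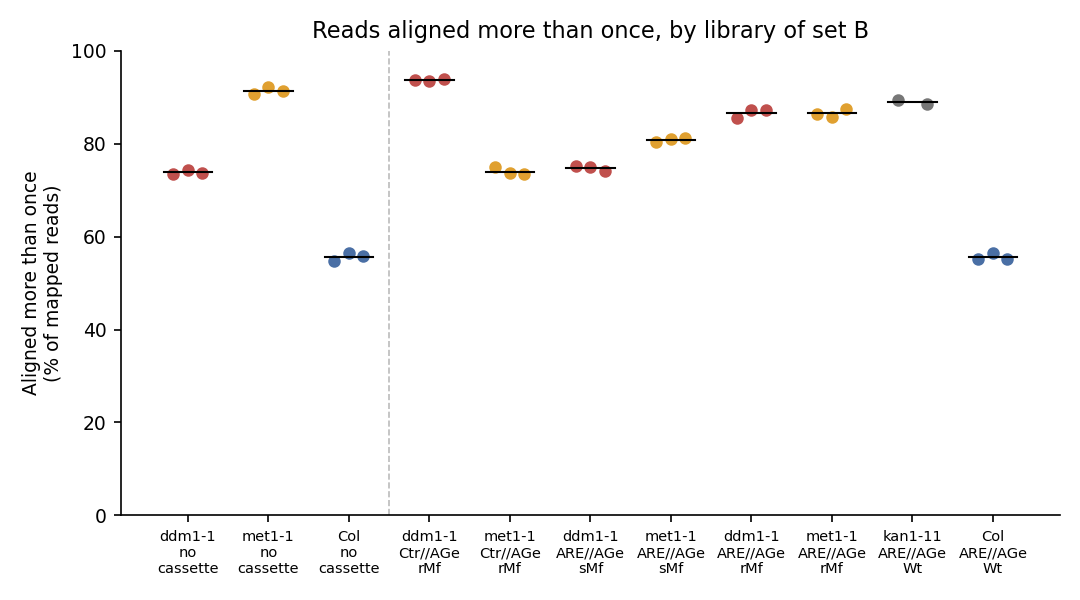
Points are the libraries of set B, and the y axis gives reads aligned more than once as % of mapped reads. Horizontal lines are group means, and the dashed line parts untransformed flowers (left) from those with a cassette. The mutants change places between no cassette (ddm1-1 73.9%, met1-1 91.4%) and Ctr//AGe (ddm1-1 93.6%, met1-1 74.0%), while both Col groups stay near 55.6%.

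Few reads fell on AG in any of the 9 libraries. AGe held 171, 53 and 94 reads in ddm1-1, 108, 94 and 157 in met1-1 and 67, 61 and 163 in Col. AGp held 89, 24 and 61 reads in ddm1-1, 69, 46 and 63 in met1-1 and 42, 45 and 65 in Col. Summed over 3 libraries, AGe came to 318 reads in ddm1-1, 359 in met1-1 and 291 in Col, and AGp to 174, 178 and 152 reads in the same order. These sums differ little although the mapped reads behind them, in units of 1000000, were 24.1 in ddm1-1, 47.0 in met1-1 and 27.1 in Col. The comparison of the genotypes therefore turns on the number of reads by which the counts are divided. Among set B libraries with a cassette, ddm1-1_ARE//AGe sMf replicate 2 held 69718 AGe and 46969 AGp reads. The Col_ARE//AGe libraries held 33 to 44 AGe reads. Whether any reads were carried over between libraries was not tested, which bears on all region counts of the 9 libraries.

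Per 1000000 mapped reads (RPM), AGe stood at 9.58, 21.2 and 24.9 in ddm1-1. It stood at 6.89, 6.64 and 9.14 RPM in met1-1, and at 8.64, 10.5 and 12 RPM in Col. ddm1-1 lay above met1-1 without overlap, and each mutant overlapped Col. The AGe means were 18.6 ± 8.01 RPM in ddm1-1, 7.56 ± 1.37 in met1-1 and 10.4 ± 1.69 in Col (SD, n = 3 each). AGp stood at 4.99, 9.61 and 16.2 RPM in ddm1-1, at 4.40, 3.25 and 3.67 RPM in met1-1 and at 5.42, 7.74 and 4.79 RPM in Col. Here met1-1 lay below both others without overlap, and ddm1-1 overlapped Col. The AGp means were 10.3 ± 5.63 RPM in ddm1-1, 3.77 ± 0.583 in met1-1 and 5.98 ± 1.55 in Col.

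Of the 6 tests per mapped read 2 passed (33.3%), both between the mutants. AGe and AGp were higher in ddm1-1 than in met1-1, by 2.39-fold (95% interval 1.44 to 3.97, edgeR adjusted p = 0.00334 over 12 tests) and 2.61-fold (1.44 to 4.72, edgeR adjusted p = 0.00454). No difference of a mutant from Col passed the test on this scale. For ddm1-1 over Col the ratios were 1.74 for AGe (1.05 to 2.89, edgeR adjusted p = 0.0580) and 1.67 for AGp (0.918 to 3.03, edgeR adjusted p = 0.137). For met1-1 over Col they were 0.727 for AGe (0.442 to 1.19, edgeR adjusted p = 0.243) and 0.640 for AGp (0.357 to 1.15, edgeR adjusted p = 0.174). The intervals for met1-1 over Col reach down to 0.442 and 0.357, so equal levels are not shown.

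The ddm1-1 libraries differed among themselves beyond counting error. Replicate 1, the largest of the 9 libraries at 17841865 mapped reads, held 9.58 RPM of AGe (exact Poisson 95% interval 8.20 to 11.1). Replicates 2 and 3, with 2498525 and 3768257, held 21.2 (15.9 to 27.7) and 24.9 RPM (20.2 to 30.5). Their shares of reads aligned more than once were 73.6%, 74.4% and 73.7%, which also differ beyond counting error but by less than 1 point. Replicates 2 and 3 are the smallest of the 9 libraries, whose mapped reads spanned 7.14-fold while their AGe counts spanned 3.23-fold, and the part of depth in these values was not tested.

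Several ddm1-1 results depended on single libraries. Without ddm1-1 replicate 3, the comparison of ddm1-1 with met1-1 per mapped read missed the threshold, with log2 changes of 0.94 in AGe (edgeR adjusted p = 0.0769) and 0.82 in AGp (edgeR adjusted p = 0.136). Without ddm1-1 replicate 1, ddm1-1 over Col passed for AGe (log2 1.15, edgeR adjusted p = 0.00323) and for AGp (log2 1.15, edgeR adjusted p = 0.0154). With DESeq2, a change of tool and not of libraries, the AGe difference of ddm1-1 over Col passed (adjusted p = 0.0415). With limma it did not pass (adjusted p = 0.0656). Without ddm1-1 replicate 3 it fell to log2 0.48 (edgeR adjusted p = 0.272). With replicate 1 as the single ddm1-1 library, the mapped-read change of ddm1-1 over met1-1 was 0.34 in AGe and 0.40 in AGp on the log2 scale (edgeR adjusted p = 0.518 in both). That of ddm1-1 over Col turned below 0, to -0.12 in AGe and -0.24 in AGp, with neither passing.

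Divided by reads aligned once, both mutants stood above the untransformed Col libraries of set B in both regions. Per 1000000 reads aligned once, AGe stood at 36.2, 82.8 and 95 in ddm1-1. It stood at 73.6, 84.9 and 105.7 in met1-1, and at 19.1, 24.1 and 27.2 in Col. AGp stood at 18.9, 37.5 and 61.7 in ddm1-1, at 47.0, 41.5 and 42.4 in met1-1 and at 12, 17.8 and 10.8 in Col. No ddm1-1 or met1-1 library overlapped Col in either region, while the mutants overlapped each other in both. On this scale AGe averaged 71.4 ± 31.0 in ddm1-1, 88.1 ± 16.3 in met1-1 and 23.4 ± 4.09 in Col, and AGp 39.3 ± 21.5 in ddm1-1, 43.7 ± 2.96 in met1-1 and 13.5 ± 3.71 in Col (SD, n = 3 each). The Col level itself varied between groups. Col_ARE//AGe flowers of set B held 5.51 to 7.73 (AGe) and 0 to 1.78 (AGp). Untransformed Col of set C, not tested against set B, held 1.75 to 2.32 and 0.666 to 1.41. Untransformed Col of set B lay above both, and the cause was not tested.

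Of the 6 tests per read aligned once 4 passed (66.7%), those of either mutant against Col. AGe rose 2.96-fold in ddm1-1 (1.72 to 5.10, edgeR adjusted p = 0.00114 over the same 12 tests) and 3.74-fold in met1-1 (2.18 to 6.42, edgeR adjusted p = 0.000160) over Col. AGp rose 2.83-fold in ddm1-1 (1.53 to 5.24, edgeR adjusted p = 0.00334) and 3.27-fold in met1-1 (1.79 to 5.98, edgeR adjusted p = 0.00114). Between the mutants the ratio of ddm1-1 over met1-1 was 0.790 for AGe (0.464 to 1.35, edgeR adjusted p = 0.411) and 0.867 for AGp (0.475 to 1.58, edgeR adjusted p = 0.635). Both rises are on a denominator that itself lay below its Col level per total read, at 0.198 in met1-1 and 0.589 in ddm1-1. For ddm1-1 the AGp rise missed the threshold without ddm1-1 replicate 3 (log2 0.96, edgeR adjusted p = 0.0995). With replicate 1 as the single ddm1-1 library neither region passed against Col (log2 0.62 and 0.50, edgeR adjusted p = 0.314 and 0.502). Against met1-1 the log2 changes were then -1.28 in AGe and -1.21 in AGp (edgeR adjusted p = 0.0604 and 0.103). Without ddm1-1 replicate 1 they lay above 0, at 0.017 and 0.20 (edgeR adjusted p = 0.964 and 0.702).

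**Figure D3:**
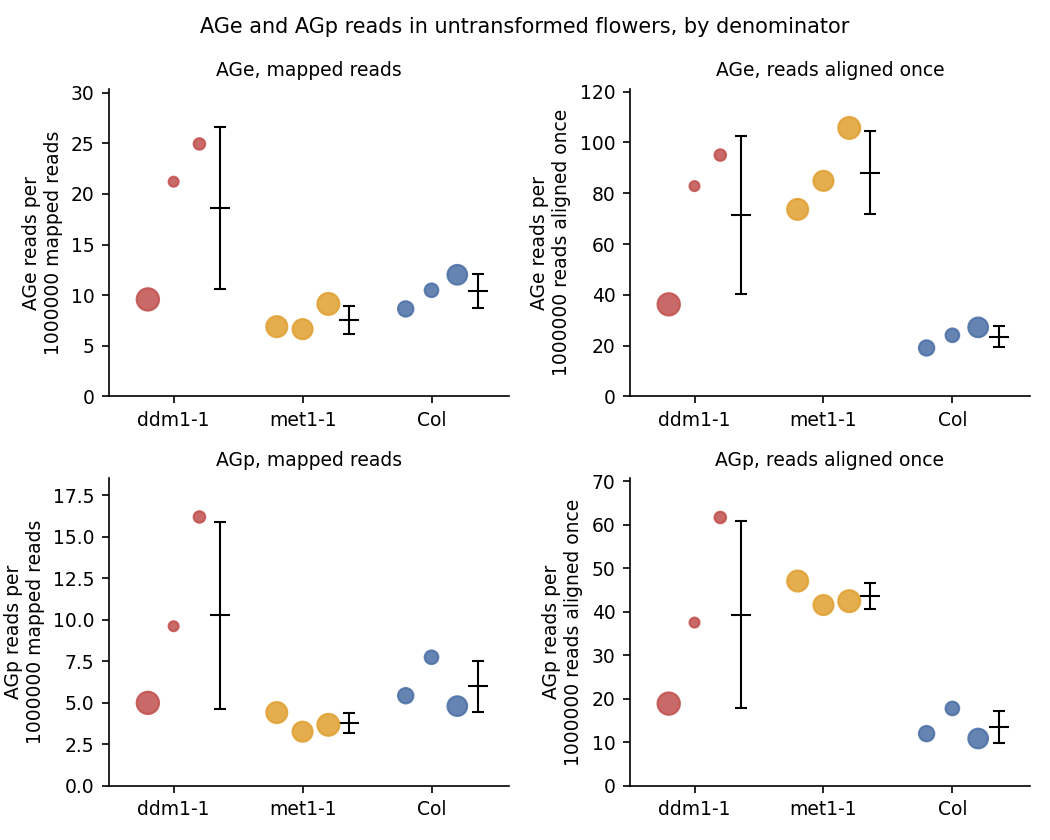
Each point is a library, with its area growing with mapped reads, and bars beside the points are the mean ± SD (n = 3). Rows are AGe and AGp, and the y axes give reads per 1000000 mapped reads (left) and per 1000000 reads aligned once (right). In the right panels both mutants lie above Col. In the left panels met1-1 overlaps Col in AGe and lies below it in AGp. There ddm1-1 is split in AGe between its large library and its pair of small ones. In AGp the ddm1-1 libraries are spread out, at 4.99, 9.61 and 16.2.

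The choice of denominator thus turned the sign of met1-1 over Col and decided which comparison passed. Per total read, met1-1 over Col was again below 0 on the log2 scale, at -0.43 in AGe (edgeR adjusted p = 0.234) and -0.61 in AGp (edgeR adjusted p = 0.179). The denominator of mapped reads counts the repeat-matching RNA and that of reads aligned once leaves it out.

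**Figure D4:**
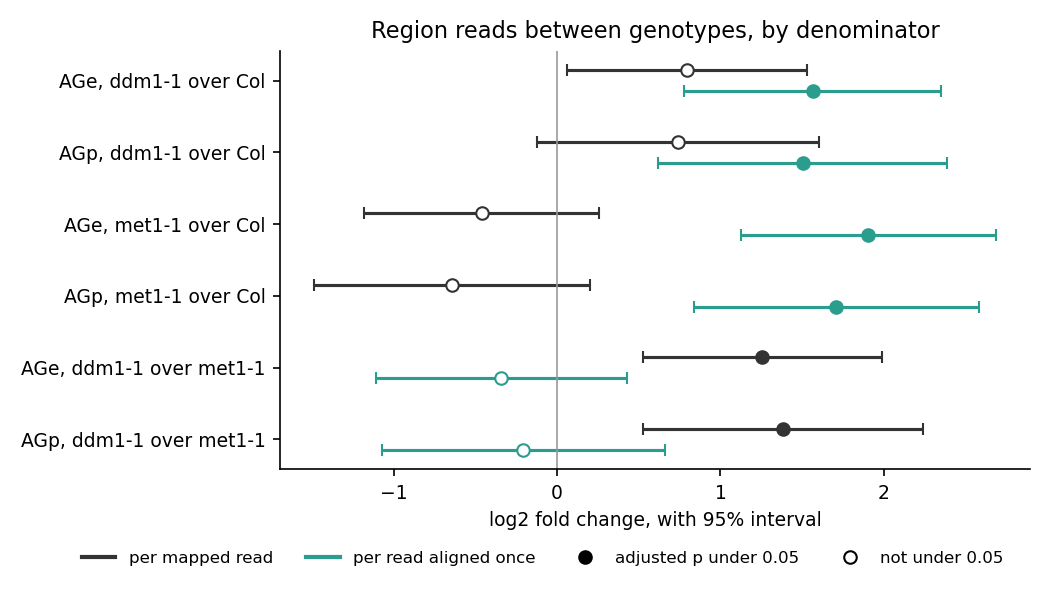
Points are log2 fold changes from edgeR with 95% intervals (x axis) for AGe and AGp in each comparison, with filled points for an adjusted p under 0.05. Per mapped read the ddm1-1 over met1-1 changes, 1.26 and 1.38, are filled, and per read aligned once the 4 changes of a mutant over Col, 1.50 to 1.90, are filled.

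The balance of the regions did not separate the genotypes. AGp reads per AGe read were 0.520, 0.453 and 0.649 in ddm1-1, 0.639, 0.489 and 0.401 in met1-1 and 0.627, 0.738 and 0.399 in Col. The libraries of the 3 genotypes overlapped, and this ratio does not depend on the denominator.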

How the data were processed

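Per the labels' protocols, RNA was extracted from pooled young flowers and libraries of set B were made with the TruSeq kit for small RNA. Bowtie, HTSeq 0.13.5 and the TAIR10 genome are named in the submitters' processing notes. How reads were trimmed, selected by size or assigned when they had several hits is not given there. Per the file headers, the deposited table holds read counts of each library (total, aligned once, aligned more than once, mapped, AGe, AGp). The authors also deposited an alignment rate in percent, and RPM for both regions. Mapped reads equalled the sum of both classes, and the deposited RPM matched region reads per 1000000 mapped reads within 0.001, in all 96 libraries. The deposited percent stood 0.570 to 0.663 points above mapped over total reads in the 9 libraries, and the counts were used in its place.

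Counts were tested with the two-sided quasi-likelihood F test of edgeR 4.0.16 (R 4.3.3) at a common dispersion, with all 32 libraries of set B in 1 fit and a mean per group. Library size was mapped reads or reads aligned once for the regions (12 tests) and total reads for the classes (6 tests), with Benjamini-Hochberg adjustment and a threshold of 0.05. SE is the log2 change over the root of F, and the 95% intervals use it and are not adjusted for the number of tests. TMM was not used, since 2 regions cannot set a scaling. Shares were tested by exact permutation. DESeq2 1.42.0 was run with edgeR's common dispersion, limma 3.58.1 on log2(reads per 1000000 + 1). Both regions are named, since no others were measured.

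Mapped reads, in units of 1000000, were 17.8, 2.5 and 3.77 in ddm1-1, 15.7, 14.1 and 17.2 in met1-1 and 7.75, 5.82 and 13.6 in Col. Poisson intervals cover counting error only, as the reads carry no molecular identifiers here. Over 5 read classes each of the 9 pairs of replicates differed by more than sampling noise (smallest chi-square 384). Nothing says that replicates are separate cultures beyond the pools, so p-values measure the spread between pools. In the edgeR tests of regions and of classes, that spread is shared by all 32 libraries of set B, those with a cassette included. Over 4 measures, the deviations of same-numbered libraries correlated at 0.844 to 0.978 for met1-1 and Col. The correlations were 0.322 to 0.907 for ddm1-1 and met1-1, and -0.151 to 0.668 for ddm1-1 and Col. Each rests on only 4 values, among them both read classes of 1 total, so these correlations cannot settle whether same-numbered libraries are paired. Genome positions were read from RefSeq's copy (TAIR10.1), whose chromosome 4 has 18585056 bp. The genotypes, regions and comparisons were chosen with earlier results of these data known.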

Additional observations from a re-analysis of the deposited data

Results flagged for a closer look

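The difference between ddm1-1 and met1-1 in reads aligned once per total read changed with the cassette and flower class. Without a cassette minus Ctr//AGe in rMf flowers the log2 difference was 3.56, minus ARE//AGe in sMf flowers 1.19, and minus ARE//AGe in rMf flowers 1.62, and each passed the edgeR interaction test (adjusted p = 9.51e-23, 1.35e-13 and 2.86e-16 over 12 tests). Cassette, flower class and plant pool differ together between these groups, and the genotypes could not be checked, so these and an exchange of libraries between ddm1-1 and met1-1 cannot be told apart.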

How the results depend on the processing

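The class tests kept direction and call in 84 of 84 alternatives. The permutation tests sat at the smallest p their design allows, so their calls say nothing about stability. With 1 library left out, the difference in the share of reads aligned more than once ran from 17.8 to 18.7 points for ddm1-1 minus Col, 35.3 to 36.2 for met1-1 minus Col and -17.9 to -17.1 for ddm1-1 minus met1-1. Per read aligned once, replacing the denominator by total reads gave log2 0.80 (AGe) and 0.74 (AGp) for ddm1-1 over Col, no longer passing. It turned met1-1 over Col to -0.43 and -0.61, neither passing, and ddm1-1 over met1-1 to 1.23 and 1.36, both passing. That follows from the denominators. DESeq2 gave 0.80 for AGe per mapped read in ddm1-1 over Col, which then passed, while limma gave 0.69, which did not. Without the 2 smallest ddm1-1 libraries (replicates 2 and 3), an alternative chosen after seeing the data, ddm1-1 over met1-1 fell short per mapped read (0.34 for AGe, 0.40 for AGp), as did ddm1-1 over Col per read aligned once (0.62 and 0.50). ddm1-1 over Col per mapped read turned to -0.12 for AGe and -0.24 for AGp, neither passing, with the single library assumed to vary like the others. The cause was not tested.

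Leaving out 1 of the 9 libraries at a time, the log2 change per mapped read ran from 0.48 to 1.15 (AGe) and 0.18 to 1.15 (AGp) for ddm1-1 over Col, and from 0.94 to 1.61 and 0.82 to 1.79 for ddm1-1 over met1-1. For AGp per read aligned once in ddm1-1 over Col it ran from 0.96 to 1.92. Per read aligned once, ddm1-1 over met1-1 ran from -0.64 to 0.017 (AGe) and -0.75 to 0.20 (AGp), passing in none, with the sign turned when ddm1-1 replicate 1 was left out. A fit of only the 9 libraries, without a block, changed no call. It gave edgeR adjusted p = 0.0189 (AGe) and 0.0160 (AGp) for ddm1-1 over met1-1 per mapped read. With the replicate block in a fit of the 9 libraries no call changed. ddm1-1 over met1-1 per mapped read was then 1.2 for AGe and 1.32 for AGp (adjusted p = 0.0449 and 0.0448, edgeR). The blocked permutation test of the 3 genotypes gave an exact p = 0.0278, and that of each pair p = 0.25. Both are the smallest that the blocked design allows, so they say nothing about stability. Both regions passed the filter of 10 reads in 3 libraries, so it changed nothing. The region counts limit precision, and the smallest is 24 reads, for AGp in ddm1-1 replicate 2.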
